A study of Mus musculus with 8 samples.

Results

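A set of 9 genes best known from white blood cells, Spib, Gata3, Pou2af1, Vpreb1, Ptprc, Cd53, Coro1a, Arhgdib and Lsp1, was followed in cultured stromal cells, with and without pre-B cells. They were picked by gene symbol in the annotation of the array, and make up 9 of 18194 named genes and 13 of 45101 probe sets. They had been chosen because their intensity was higher in OP9 stromal cells grown with pre-B cells than in OP9 cells alone, so the values in these 2 groups, and in any comparison that uses them, are given for the 9 genes as a description with no test. The genes differed widely in the size of that difference, which was 34.3-fold for Spib and between 1.24-fold and 4.84-fold for the other 8, each by the probe set of the gene with the highest mean.

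The groups were OP9 with 230-238, that is OP9 bone marrow stroma (strain B6C3F1) co-cultured with the pre-B cell line 230-238, OP9 alone, MC3T3, an osteoblast-like line, and NIH3T3, an embryonic fibroblast line, the last 2 labelled Balb/c, with 2 arrays in each group, which the labels call biological replicates, and 8 in all. Per the methods of the study, the OP9 cells carried a red fluorescent protein from a retrovirus, were sorted by its colour after a week with the pre-B cells, and the OP9 cells without pre-B cells were kept in conditioned medium, while the labels call these only a culture. The paper also describes OP9 arrays made for its comparison of receptors and ligands, and the labels do not say which the OP9 arrays are. Differences in virus, sorting or medium therefore cannot be told apart from the presence of pre-B cells. The stromal cells of each group are a single established line, and an array was labelled as made from 2000 cells. Of the 2 MC3T3 arrays, 1 is described as sorted cells and the other as a culture. No array of 230-238 cells alone was analysed here, and in such bulk samples a share of other cells and more RNA per cell cannot be told apart.

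The B-lymphoid lineage is built by transcription factors acting in order. Spib is an ETS-family factor close to PU.1, known from B cells, plasmacytoid dendritic cells and the M cells of the gut, which take up antigen from the lumen. Pou2af1 (OBF1, OCA-B) is a coactivator that binds the octamer factors on DNA in B cells, and Gata3 is a zinc finger factor needed for T cells that is also used in several tissues outside the blood. Vpreb1 is part of the surrogate light chain, which pairs with the immunoglobulin heavy chain in the pre-B cell receptor. Ptprc is CD45, the receptor tyrosine phosphatase of nearly all white blood cells, and Cd53 is a tetraspanin of their surface. Coro1a, Arhgdib and Lsp1 work at the actin skeleton, as a coronin, a regulator of its remodelling, and an actin-binding protein.

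Of the 9 genes, 8 were found in the RefSeq promoter table (build GRCm38.p6), with 12 promoters, each from 250 bases before to 50 bases after a transcript start, and Lsp1 is named only. The promoters of both transcription regulators of B cells, Spib and Pou2af1, are shown because they hold the octamer core, and that of Vpreb1 because it encodes a part of the pre-B cell receptor. Capitals mark the octamer core TGCAAAT and the purine-rich ETS core GAGGAA, each searched on both strands, and they do not overlap in these windows. Spib lies at chr7:44532022-44532321 on the minus strand, Pou2af1 at chr9:51213440-51213739 on the plus strand, and Vpreb1 at chr16:16869206-16869505 on the minus strand.
Spib: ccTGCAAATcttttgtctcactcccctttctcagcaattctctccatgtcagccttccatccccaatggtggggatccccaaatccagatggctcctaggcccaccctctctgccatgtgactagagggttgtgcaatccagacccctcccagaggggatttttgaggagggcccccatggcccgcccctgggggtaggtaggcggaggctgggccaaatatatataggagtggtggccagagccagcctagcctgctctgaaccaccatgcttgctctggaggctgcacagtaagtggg
Pou2af1: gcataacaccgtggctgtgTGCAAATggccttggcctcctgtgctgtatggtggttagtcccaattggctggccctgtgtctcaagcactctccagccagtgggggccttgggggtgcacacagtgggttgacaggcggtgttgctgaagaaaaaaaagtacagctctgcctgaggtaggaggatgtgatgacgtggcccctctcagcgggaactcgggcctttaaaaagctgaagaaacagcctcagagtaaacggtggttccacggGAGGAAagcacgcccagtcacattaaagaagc
Vpreb1: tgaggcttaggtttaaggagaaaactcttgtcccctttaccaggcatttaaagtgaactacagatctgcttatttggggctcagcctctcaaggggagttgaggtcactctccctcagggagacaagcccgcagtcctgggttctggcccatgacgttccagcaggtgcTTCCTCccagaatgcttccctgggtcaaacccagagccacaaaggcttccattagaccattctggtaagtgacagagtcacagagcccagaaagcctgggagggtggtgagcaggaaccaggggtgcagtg
The octamer core began 248 bases before the start of Spib and 231 bases before that of Pou2af1, and stood in 2 of the 12 promoters, against 4.02% of all 32851 promoters in the table. GAGGAA stood in 5 of the 12 promoters, those of Pou2af1, Vpreb1, Cd53, 1 of the 2 of Ptprc and 1 of the 3 of Arhgdib, against 28.3% of all promoters. The GATA core AGATAA stood in 2 of the 12, of Ptprc and Arhgdib, against 11.2% of all. These matches describe letters in the windows and not sites of binding.

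All values are intensities on a linear scale, normalized between arrays by the authors. Array medians ran from 41.8 to 45.0, and 34.3 to 36.3% of the signals on each array were 100 or more. The correlation of the 2 arrays of a group over genes, which are not independent replicates, ran from 0.9896 in NIH3T3 to 0.9976 in OP9. The 10 stromal markers on the list (Pdgfra, Pdgfrb, Col1a1, Col1a2, Col3a1, Cxcl12, Vcam1, Thy1, Fn1 and Sparc) were summed, and reached 94485 and 93844 in co-culture against 90192 and 91539 in OP9. Thy1 was low in both, at 25.5 and 29.7 in co-culture and 22.4 and 22.6 in OP9. Of the markers, 0 of 10 were called different in limma, where a call required 2-fold or more with an adjusted p under 0.05. Of all genes tested, 2.71% were called higher and 2.97% lower. At an unadjusted p below 0.05, 3 markers were higher and 1 lower, and each also had an adjusted p under 0.05 but fell short of 2-fold. Higher were Pdgfra (1.41-fold, limma adjusted p = 0.000847), Col3a1 (1.56-fold, limma adjusted p = 0.000248) and Sparc (1.19-fold, limma adjusted p = 0.0245). Pdgfrb was 1.89-fold lower (limma adjusted p = 0.000255).

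Spib had the largest co-culture difference of the 9 genes. Its only probe set (1460407_at) read 723.2 and 729.6 in OP9 with 230-238, against 19.8 and 22.6 in OP9, 27.4 and 21.5 in MC3T3 and 40.8 and 19.5 in NIH3T3 cells. The co-culture arrays stood far above the other 6, which overlapped each other, so OP9, MC3T3 and NIH3T3 have no order beyond their spread. The means were 726 ± 4.48 in co-culture and 21.2 ± 1.97 in OP9 (SD, n = 2 each), a 34.3-fold difference, or 5.10 on the log2 scale. By this difference it had rank 1 of the 10084 genes that passed a filter of 100 on 2 or more arrays. Spib was chosen for this difference and passed the filter through the co-culture arrays alone, so the rank is only a description. The paper names it among the transcription factors that differed between these cultures. It also reports quantitative PCR in sorted OP9 cells, where Spib rose with a pre-pro-B line and with 230-238, but not with a myeloid progenitor line.

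Pou2af1 and Gata3 are the other transcription regulators, and Pou2af1 did not reach 100 on any array. Pou2af1 (1416957_at) read 36.0 and 33.8 in co-culture, against 8.07 and 7.95 in OP9, 14.1 and 12.9 in MC3T3 and 8.42 and 9.32 in NIH3T3 cells. The co-culture arrays were highest, MC3T3 came next, and the arrays of OP9 and NIH3T3 did not overlap but were less than 1 unit apart in their means, 8.01 ± 0.083 and 8.87 ± 0.634 (SD, n = 2 each). The co-culture mean was 34.9 ± 1.51, 4.35-fold that of OP9 (log2 2.12), a gain of 26.9 intensity units.

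Gata3 (1448886_at) read 117.8 and 112.7 in co-culture, against 38.7 and 42.5 in OP9, 36.1 and 39.2 in MC3T3 and 36.3 and 25.2 in NIH3T3 cells. OP9 and MC3T3 overlapped, as did MC3T3 and NIH3T3, OP9 lay just above NIH3T3, and the co-culture arrays lay above all others. The mean of 115 ± 3.61 in co-culture was 2.84-fold the 40.6 ± 2.70 in OP9 (SD, n = 2 each), 1.51 on the log2 scale and 74.7 units.

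Vpreb1, the surrogate light chain gene, read 77.7 and 76.0 with its own probe set (1449869_at) in co-culture, against 25.8 and 21.6 in OP9, 24.7 and 22.0 in MC3T3 and 30.1 and 25.2 in NIH3T3 cells. The co-culture mean of 76.9 ± 1.17 was 3.26-fold that of OP9, 23.7 ± 2.95 (SD, n = 2 each), while the arrays of OP9 overlapped with those of both other lines. A probe set shared by Vpreb2 and Vpreb1 (1422416_s_at), not counted among the 13, read 69.6 and 70.8 in co-culture and 39.6 and 40.8 in OP9. Transcripts of these near-identical genes bind the same probes there, so that signal cannot be assigned to 1 gene.

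Neither of the 2 surface protein genes reached 100 on any array. Ptprc (1422124_a_at) read 34.6 and 31.1 in co-culture, against 8.93 and 8.58 in OP9, 11.8 and 11.3 in MC3T3 and 8.02 and 11.8 in NIH3T3 cells, a mean of 32.8 ± 2.48 against 8.75 ± 0.244 in OP9 (SD, n = 2 each) and 3.75-fold. NIH3T3 spanned the levels of OP9 and MC3T3, and the co-culture arrays lay above all. A second Ptprc probe set (1440165_at) read 10.9 and 10.9 in co-culture and 12.03 and 10.9 in OP9, with overlap and a log2 difference of -0.07. Cd53 (1448617_at) read 77.7 and 80.5 in co-culture, against 24.6 and 22.8 in OP9, 21.3 and 15.9 in MC3T3 and 29.6 and 16.02 in NIH3T3 cells, a 3.34-fold difference between the means of 79.1 ± 1.95 and 23.7 ± 1.23 in co-culture and OP9 (SD, n = 2 each). The co-culture arrays lay above all others, OP9 lay above MC3T3, and the NIH3T3 arrays overlapped with both. Its second probe set (1459744_at) read 11.0 and 11.4 in co-culture and 10.4 and 9.98 in OP9, a log2 difference of 0.14.

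Of the genes of the actin skeleton, Coro1a was measured by 3 probe sets. One of them (1416246_a_at) read 116.0 and 125.3 in co-culture, against 25.9 and 23.9 in OP9, 40.3 and 34.4 in MC3T3 and 51.0 and 30.9 in NIH3T3 cells. The co-culture arrays lay above all others, OP9 lay below all others, and MC3T3 fell inside the range of NIH3T3. The mean was 121 ± 6.58 in co-culture, 4.84-fold the 24.9 ± 1.43 in OP9 (SD, n = 2 each). A second probe set (1455269_a_at) read 86.6 and 89.8 in co-culture against 20.2 and 19.1 in OP9, 4.49-fold, and the third (1435288_at) 13.4 and 11.8 against 11.3 and 11.1, a log2 difference of 0.16 at the bottom of the scale.

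**Figure D1:**
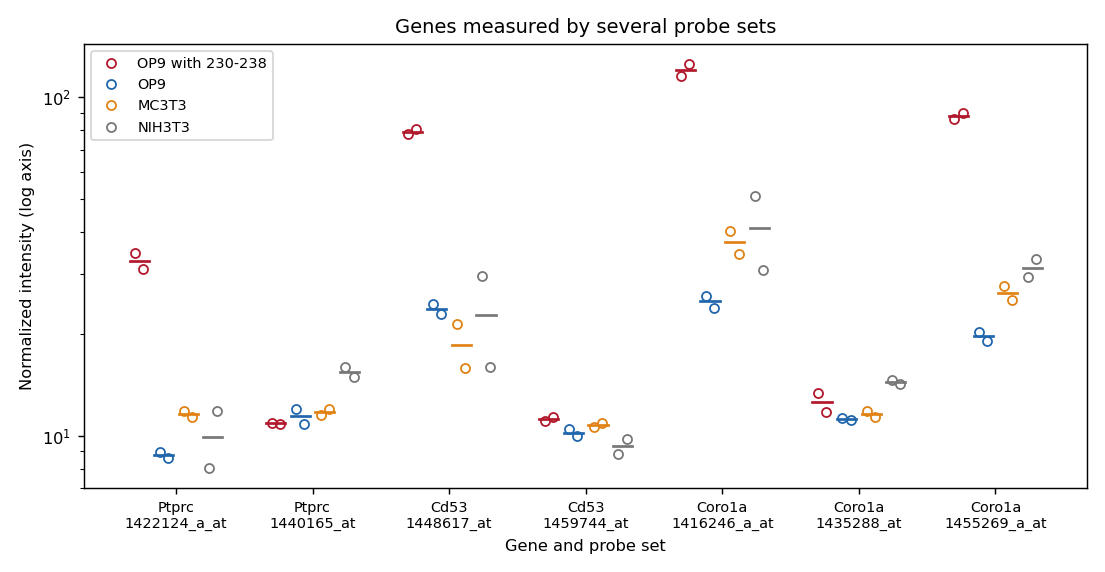
Normalized intensity (log axis) of each probe set of Coro1a, Cd53 and Ptprc, with a point for each array and a bar for the mean of the 2 arrays of a group. The co-culture points stand apart for 2 of the 3 Coro1a probe sets and 1 of the 2 of Cd53 and Ptprc, and the remaining probe sets lie between 8.86 and 15.97 in all groups.

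Arhgdib was the one gene of the 9 that was not highest in the co-culture. Its probe set (1426454_at) read 126.1 and 140.3 in OP9 with 230-238, against 51.0 and 58.7 in OP9, 3933 and 3726 in MC3T3 and 73.1 and 42.9 in NIH3T3 cells. The co-culture mean was 133 ± 10.0 and that of OP9 54.9 ± 5.42 (SD, n = 2 each), 2.43-fold and 78.4 units apart, and OP9 overlapped with NIH3T3. MC3T3 cells averaged 3830 ± 146 (SD, n = 2), 28.8-fold the co-culture and 69.9-fold OP9, and the array described as sorted cells, at 3726, stood beside that described as a culture, at 3933.

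Lsp1 had the smallest difference. Its probe set (1417756_a_at) read 253.0 and 261.5 in co-culture, against 197.6 and 218.5 in OP9, 107.3 and 77.7 in MC3T3 and 122.4 and 139.5 in NIH3T3 cells. The groups did not overlap, with co-culture highest, then OP9, NIH3T3 and MC3T3. The co-culture mean of 257 ± 5.999 was 1.24-fold the 208 ± 14.8 in OP9 (SD, n = 2 each), and OP9 was 1.59-fold NIH3T3 and 2.28-fold MC3T3.

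**Figure D2:**
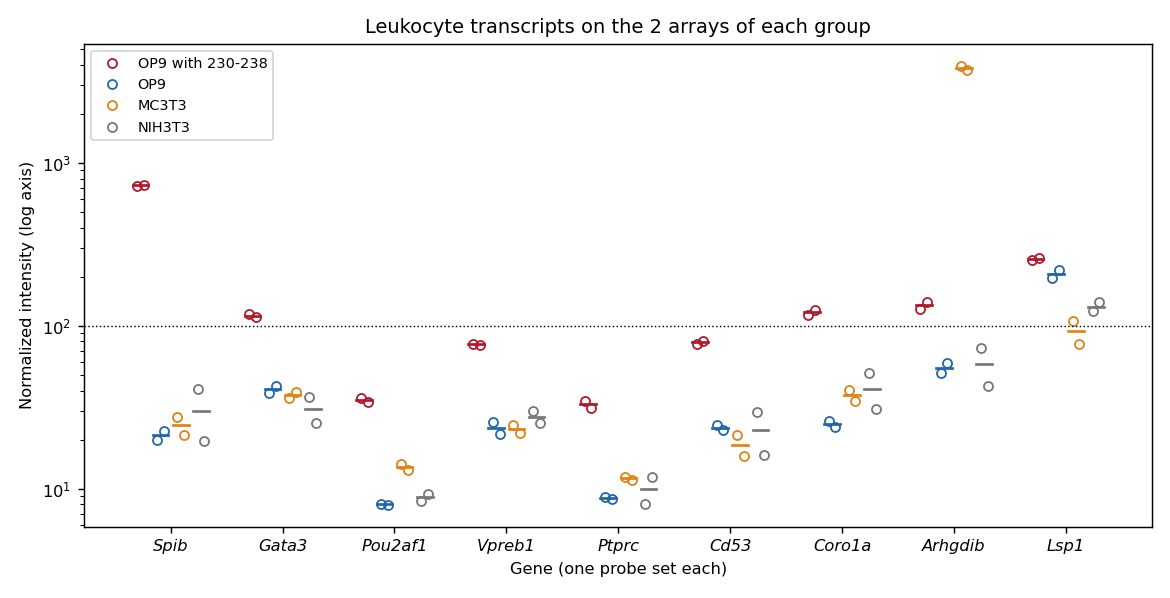
Normalized intensity (log axis) of the 9 genes, each by the probe set with the highest mean log2 value, with a point for each array, a bar for the mean of the 2 arrays of a group and a dotted line at 100. Spib stands at 723.2 and 729.6 in co-culture, 8 of the 9 genes are highest in co-culture, and Arhgdib is highest in MC3T3 at 3933 and 3726.

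Across the 9 genes, both co-culture arrays lay above both OP9 arrays in 9 of 9, and this held for 12 of the 13 probe sets, while 34.1% of all named genes did so. In 8 of 9 the co-culture arrays lay above all 6 other arrays, against 11.1% of all named genes, and 8 of 9 were at least 2-fold higher than in OP9, against 1.71% of all named genes without a filter. With the mean of all probe sets of a gene, Ptprc and Cd53 came to log2 differences of 0.92 and 0.94, under 2-fold. Of the 9 genes 5, Spib, Gata3, Coro1a, Arhgdib and Lsp1, passed the filter of 100 on 2 arrays, the first 3 of them through the co-culture arrays alone. These counts follow from how the genes were chosen and nothing is read from them. Just inside 2-fold stood Arhgdib at 2.43-fold, and Lsp1 at 1.24-fold stood outside.

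Without Spib, and with 1 probe set for each gene, the differences ran from 1.24-fold to 4.84-fold and the probe sets gained between 24.1 and 95.7 intensity units, where that of Spib gained 705, although units of different probe sets are not measures of relative transcript level. The 2 co-culture arrays were close, with absolute log2 differences between 0.0126 and 0.154, and the second array was the higher in 5 of the 9 genes. The OP9 values of Ptprc and Pou2af1, between 7.95 and 8.93, lay close to the lowest values of the arrays, between 5.99 and 6.34.

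MC3T3 against NIH3T3 is the one comparison whose means used none of the arrays on which the genes were chosen, and was tested, although those arrays entered the filter and the spread shared by all groups. Arhgdib was higher in MC3T3 cells by 68.3-fold (log2 6.09 ± 0.219 SE, limma adjusted p = 2.07e-07), rank 34 of 10084 genes. Lsp1 was 1.43-fold lower in MC3T3 (log2 -0.52 ± 0.149 SE, limma adjusted p = 0.0140), short of 2-fold, and was therefore not called. Spib, Gata3 and Coro1a entered the fit only through the co-culture arrays, and read between 19.5 and 51.0 on the MC3T3 and NIH3T3 arrays, so their values there are given above with no test. The share of the 10084 genes called in MC3T3 against NIH3T3 was 17.8% for higher and 9.65% for lower. The labels call the arrays biological replicates but do not describe separate cultures, and the p-values cover the spread between them, part of which may be technical.

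Other genes of pre-B cells, which had no part in the choice, were read beside the 9. Of 28 on the list 26 were measured and 7 passed the filter. By limma 0 were called higher or lower in co-culture than in OP9, against 2.71% of all genes called higher and 2.97% called lower. At an unadjusted p below 0.05, 2 were higher and 1 lower. Of these 7, Ebf1, Cd24a and Foxo1 were already expressed in OP9, with means of 2034, 184 and 295. Blnk and Igll1 passed through the NIH3T3 arrays alone. The group means of Ighm ran from 179 to 226 and those of Bcl11a from 103 to 124. Cd79a, Cd79b, Rag1 and Pax5 did not pass and were not tested. Few of the tested genes could thus show RNA of pre-B cells, and nothing is read about it from the 0 called. Both co-culture arrays lay above both OP9 arrays in 18 of the 26 (69.2%, against 34.1% of all named genes), with a median log2 difference of 0.288, where that of all named genes was 0.0271, and none reached 2-fold. This holds for the 1 probe set of highest mean log2 value by which each list gene was read. With each probe set that passed the filter fitted on its own, 0 were called higher. Other probe sets below the filter were not read. The 19 genes that did not pass the filter read at most 80.8 on any array. Cd79b, a signalling chain of the B cell receptor, read 32.1 and 28.5 in co-culture and 18.7 and 18.6 in OP9, and its partner Cd79a 38.0 and 51.4 in co-culture and 33.8 and 34.0 in OP9. Igll1, which forms the surrogate light chain with Vpreb1, read 76.3 and 74.7 in co-culture and 54.0 and 67.5 in OP9 (1.25-fold, limma adjusted p = 0.166), and was highest in NIH3T3 at 144.3 and 101.5.

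Rag1, a recombinase subunit of developing lymphocytes, read 10.8 and 13.1 in co-culture and 10.6 and 11.0 in OP9, and Dntt, which adds bases at the joints, 31.8 and 31.8 in co-culture and 31.4 and 32.0 in OP9. Btk, a kinase downstream of the B cell receptor, was among those that stood apart, with 48.3 and 44.8 in co-culture and 24.0 and 29.5 in OP9 (1.75-fold, not tested). Cd24a, a surface protein not confined to B cells, was 1.68-fold higher (299 and 322 in co-culture, 181 and 188 in OP9, limma adjusted p = 0.00573), which is short of a call. Ebf1, a B-lineage factor that OP9 cells also expressed, read 1267 and 1531 in co-culture and 2146 and 1922 in OP9 (log2 -0.54, limma adjusted p = 0.0321), short of 2-fold. The summed level of the list was 3061 and 3317 in co-culture and 3584 and 3393 in OP9, to which Ebf1 contributed the values above. How far RNA of 230-238 cells contributed to the values of the 9 genes was not tested.

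Of 30 pan-leukocyte genes 28 were measured, 8 passed the filter and 1 was called higher and 0 lower in co-culture, against 2.71% and 2.97% of all genes tested, and at an unadjusted p below 0.05, 4 were higher and 1 lower. That gene was Srgn, the core protein of the serglycin proteoglycan of secretory granules, at 172.1 and 161.0 in co-culture against 48.3 and 29.2 in OP9 cells, 13.9 and 14.0 in MC3T3 and 16.4 and 14.2 in NIH3T3 (4.43-fold over OP9, log2 2.15 ± 0.206 SE, limma adjusted p = 0.000185). It reached 100 on the co-culture arrays alone, and so passed the filter only through the group in which it was high. In 19 of the 28 (67.9%, against 34.1% of all named genes) both co-culture arrays lay above both OP9 arrays, with a median log2 difference of 0.346, against 0.0271 over all named genes. Among these 19, Cd52 read 32.7 and 32.7 in co-culture and 17.3 and 22.7 in OP9. Lcp1 (an actin bundler) read 39.5 and 37.3 in co-culture and 27.8 and 19.7 in OP9. Rac2 (a small GTPase of blood cells) read 64.3 and 64.5 in co-culture and 54.0 and 45.8 in OP9. In 2 of the 28, Itgb2 and Hcls1, both co-culture arrays lay below both OP9 arrays. Itgb2 averaged 102.4 in co-culture and 132.8 in OP9 (log2 -0.374, limma adjusted p = 0.0719). Hcls1 averaged 90.5 in co-culture and 105 in OP9 (log2 -0.222, limma adjusted p = 0.208). The summed level was 3308 and 3313 in co-culture and 2424 and 2346 in OP9, and was highest in MC3T3 cells at 6343 and 6724, where Cd44, an adhesion receptor, alone read 5143 and 5614.

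**Figure D3:**
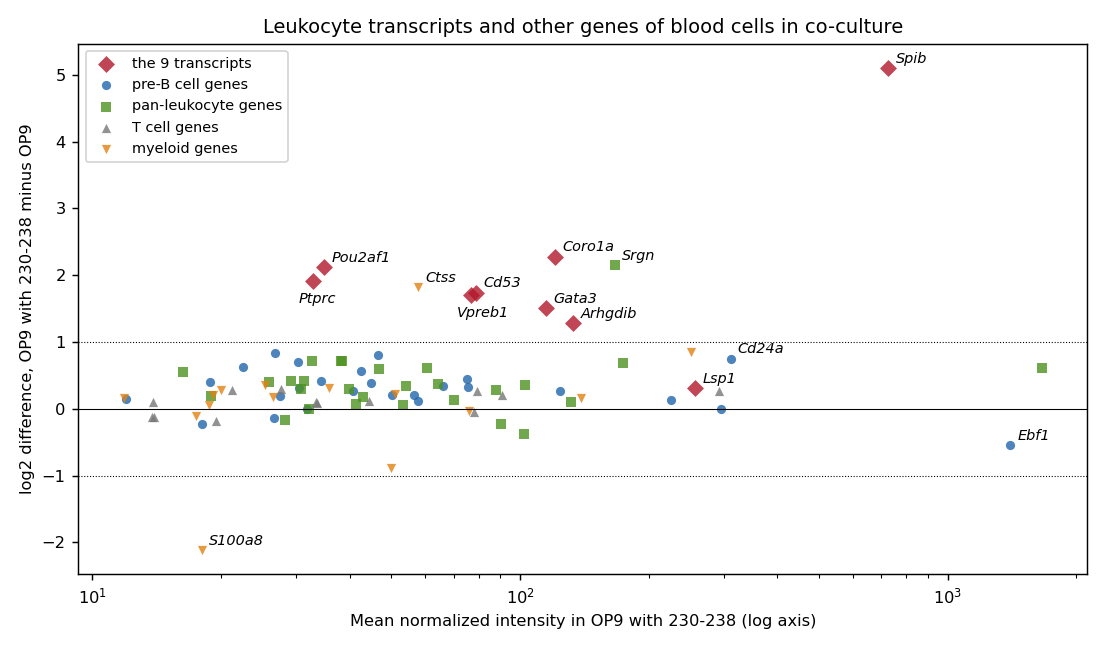
The log2 difference of OP9 with 230-238 minus OP9 (vertical axis, dotted lines at 2-fold) against the mean normalized intensity in co-culture (horizontal log axis), with a point for each of the 9 genes and for each measured gene of the pre-B, pan-leukocyte, T cell and myeloid lists. Each gene is shown by its probe set of highest mean log2 value. Spib lies alone at 5.10, and no pre-B cell gene outside the 9 reached 2-fold by that probe set.

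Few T cell and myeloid genes passed the filter. Of 15 T cell genes 13 were measured, 2 passed the filter (Zap70 and Thy1) and 0 were called higher or lower by limma, with 1 higher at an unadjusted p below 0.05 and a median log2 difference of 0.106 over the 13. Of 16 myeloid genes 15 were measured, 3 passed and 0 were called in limma (1 higher and 1 lower at an unadjusted p below 0.05). These were Cd14, 1.81-fold higher (limma adjusted p = 7.40e-05), and Lyz2, 1.86-fold lower (limma adjusted p = 0.000322), both short of 2-fold. Both co-culture arrays lay above both OP9 arrays in 46.2% of the T cell genes measured, 53.3% of the myeloid genes and 60% of the stromal markers. Shares above the 34.1% of all named genes were thus not confined to the pre-B and pan-leukocyte lists. A pair of untested myeloid genes were more than 2-fold apart. Ctss, a lysosomal protease of antigen-presenting cells, read 58.9 and 56.6 in co-culture and 17.2 and 15.5 in OP9 (3.54-fold). S100a8, a calcium-binding protein of neutrophils that did not pass the filter, read 16.8 and 19.3 in co-culture and 87.8 and 69.2 in OP9 (log2 -2.11).

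Other genes of the families to which the 9 belong were counted beside the 2.71% of all genes tested that were called higher and the 2.97% called lower in co-culture. Of 25 other ETS factors 23 were measured, 14 passed the filter and 0 were called higher or lower in co-culture by limma (3 higher and 3 lower at an unadjusted p below 0.05). Spi1, which encodes PU.1, read 59.0 and 52.9 in co-culture and 37.7 and 35.8 in OP9 (1.52-fold, not tested), and Ets2 730 and 866 in co-culture and 443 and 463 in OP9 (1.76-fold, limma adjusted p = 0.000816), short of a call. Of 5 other GATA factors 2 were tested and 0 were called, with 0 also at an unadjusted p below 0.05 in limma, and Gata2 read 166 and 153 in co-culture and 144 and 144 in OP9. Of the octamer factors, with which Pou2af1 works, 1 was tested and 0 were called (0 at an unadjusted p below 0.05 in limma), and Pou2f2, the factor of B cells, read 32.3 and 28.5 in co-culture and 23.2 and 25.97 in OP9.

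Of 6 other coronins 4 were tested and 0 were called, with 2 lower at an unadjusted p below 0.05 in limma, Coro1b at 1578 and 1659 in co-culture and 1875 and 1870 in OP9 (log2 -0.21, limma adjusted p = 0.0336), and Coro1c at 249 and 265 in co-culture and 311 and 309 in OP9 (log2 -0.27, limma adjusted p = 0.0154). Of 14 other receptor tyrosine phosphatases measured 7 were tested and 0 were called by limma (2 higher, 2 lower at an unadjusted p below 0.05). Of 20 tetraspanins measured 14 were tested, 1 was called higher (7.14%) and 1 lower. Cd82 read 1378 and 1498 in co-culture and 318 and 324 in OP9 (4.47-fold, limma adjusted p = 0.000541), while Tspan12 read 38.5 and 44.1 in co-culture and 134.9 and 137.7 in OP9 (log2 -1.73, limma adjusted p = 0.000152) and reached 100 on the OP9 arrays alone.

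Spib is also a factor of intestinal M cells, and 11 other genes known from those cells were read beside it. Of these, 6 passed the filter, and 4 were called higher and 0 lower in co-culture (66.7% of those tested, against 2.71% of all genes). Ccl9, a chemokine, read 13615 and 13445 in co-culture and 1552 and 1762 in OP9 (8.18-fold, limma adjusted p = 6.68e-07). Nfkb2, an NF-kB subunit of the alternative pathway, read 1096 and 1074 in co-culture and 246 and 234 in OP9 (4.52-fold, limma adjusted p = 3.75e-06), and its partner Relb 374 and 383 in co-culture and 112 and 126 in OP9 (3.19-fold, limma adjusted p = 9.27e-05). Tnfaip2, induced by tumour necrosis factor in other cells, read 1473 and 1480 in co-culture and 394 and 369 in OP9 (3.87-fold, limma adjusted p = 1.59e-05). These 4 genes are also used by many cells outside the gut. The list was chosen with earlier results of these data known, and the paper names Ccl9 among the genes induced by pre-B cells. The share of the list called is therefore a description, and nothing is read from it about M cells. Anxa5 and Marcksl1 were tested and not called, and Gp2, Sox8, Ccl20, Tnfrsf11a and Tnfrsf11b, of which Gp2 is an uptake receptor of mature M cells, did not pass the filter.

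**Figure D4:**
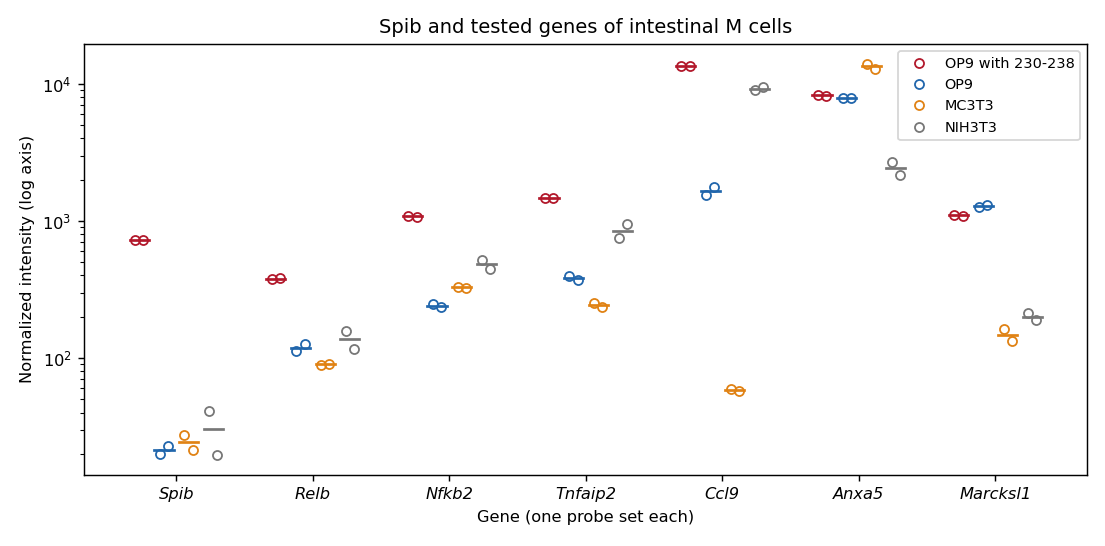
Normalized intensity (log axis) of Spib and the 6 tested M cell genes, with a point for each array and a bar for the mean of the 2 arrays of a group. Relb, Nfkb2, Tnfaip2 and Ccl9 stand higher in co-culture than in OP9, and Ccl9 is also high in NIH3T3 at 9057 and 9463.

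For each of the 5 genes that passed the filter, the 3 genes with the nearest centred log2 profile over the 8 arrays were found by Euclidean distance. These arrays form 4 groups, so the correlations over them are a description. Spib, Coro1a and Gata3 were chosen for their rise in co-culture, so nothing is read from the same rise in their nearest genes. Nearest to Spib were Mmp9, a gelatinase (distance 1.48, r = 0.970), Casp4, an inflammatory caspase (1.80, r = 0.975), and Psmb8, a subunit of the immunoproteasome (2.12, r = 0.954). Mmp9 read 1505 and 1622 in co-culture and 81.0 and 77.3 in OP9, Casp4 read 800 and 802 in co-culture and 62.0 and 52.1 in OP9, and Psmb8 read 776 and 805 in co-culture and 88.6 and 87.2 in OP9. Their folds over OP9 were 19.7, 14.1 and 8.99, and had to be below that of Spib, which had rank 1 by this difference.

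Nearest to Coro1a were Nfkb2 (distance 0.645), Mycn, a transcription factor (0.737), and Tnfaip3, an inhibitor of NF-kB signalling (0.816). Nearest to Gata3 were C430002N11Rik (0.274), Golm1, a Golgi membrane protein (0.480), and Cxcl16, a chemokine (0.549). Lsp1, with its graded levels, had Lgals2, Kcnd1 and Bckdha nearest, at distances of 0.333, 0.360 and 0.364. Arhgdib had Dock10, a guanine nucleotide exchange factor (1.25), Thy1, a surface glycoprotein (1.37), and Prelid2 (1.37) nearest. Dock10 read 785 and 841 in MC3T3 and 9.85 and 10.8 in NIH3T3 cells, and Thy1 read 1255 and 1104 in MC3T3 and 30.8 and 24.3 in NIH3T3.

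**Figure D5:**
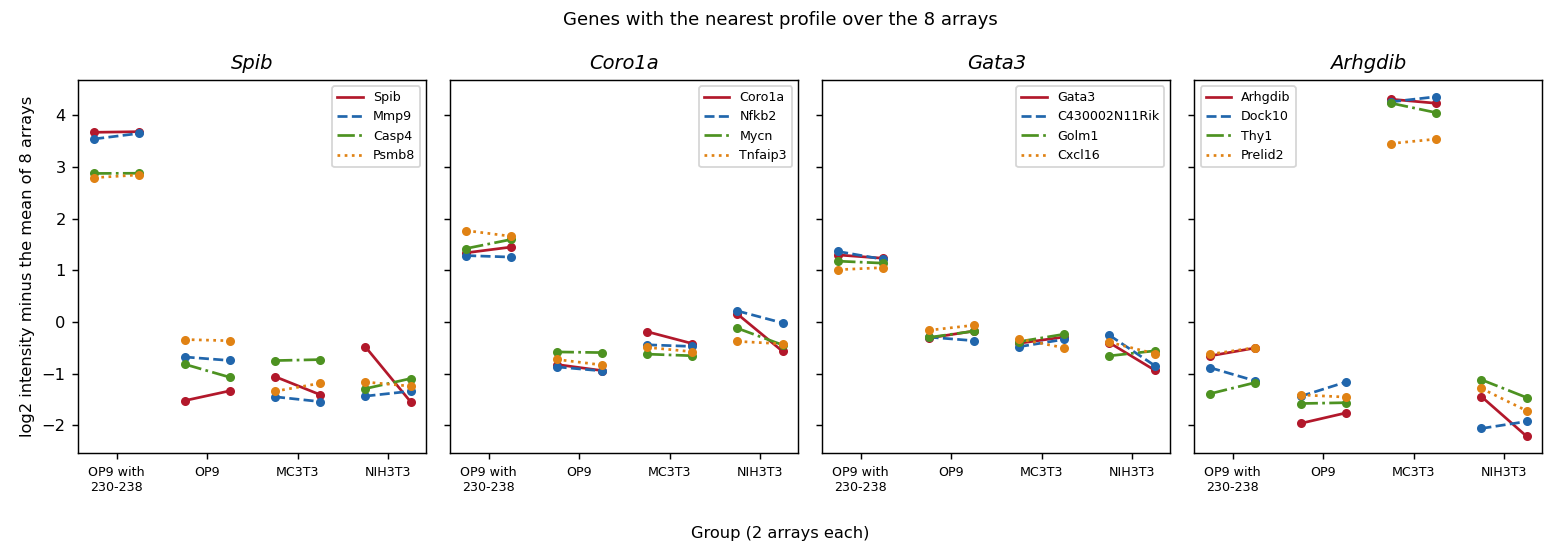
Log2 intensity minus the mean of the 8 arrays for Spib, Coro1a, Gata3 and Arhgdib, each with its 3 nearest genes, with a point for each array and a line joining the 2 arrays of a group. The profiles of Spib, Coro1a and Gata3 peak in OP9 with 230-238 and that of Arhgdib in MC3T3.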

How the data were processed

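Gene expression was measured with 8 Affymetrix mouse arrays, 2 for each of 4 groups named in the labels. The authors deposited 1 normalized intensity per probe set and array, on a linear scale. RMA Express, affylmGUI and dChip are named in the methods, and which one made these values is not stated there. Background signal compresses folds of low genes, and precision is limited by the 2 arrays in a group.

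Of the probe sets 34958 had 1 gene symbol, 932 several and 9211 none. Log2 values were used as they stood, without a pseudocount, each gene was represented by the probe set of highest mean log2 value, and the 10084 genes that reached 100 on 2 or more arrays were fitted with lmFit and eBayes of limma 3.58.1 in R 4.3.3, with 4 group means, 4 residual degrees of freedom and Benjamini-Hochberg adjustment over all genes. The model was tested on simulated data. Calls needed 2-fold or more with an adjusted p under 0.05. Some genes counted at an unadjusted p below 0.05 also had an adjusted p under 0.05 and fell short of 2-fold.

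The 9 genes and the lists (pre-B, pan-leukocyte, T cell, myeloid, stromal, M cell and the families of the 9, of which that of Arhgdib is not reported here) were chosen with earlier results of these data known. The rule for named genes took the 9, up to 4 called genes of a list in each direction and the 3 nearest profiles, and other list genes were named after their values were seen. Alternatives were quantile normalization, median scaling, the filter dropped or raised to 200, 16 added before log2, a fit of only the 4 arrays compared, a trended and robust prior, a replicate block, the mean of probe sets, leaving out _x_at and _s_at probe sets, single probe sets and leaving out each array.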

Additional observations from a re-analysis of the deposited data

How the results depend on the processing

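Besides leaving out each of the 8 arrays, 11 settings were tried. With the filter at 200, the count of pan-leukocyte genes called higher in co-culture was 0, against 1 otherwise, since Srgn did not reach that level. With each array left out in turn, genes called higher in co-culture numbered 265 to 280 (273 with all arrays), genes called lower 277 to 307 (299), pre-B cell genes called higher 0 to 0, pan-leukocyte genes 1 to 1 and members of the 9 called in MC3T3 against NIH3T3 1 to 1. The replicate number as a block gave 273 higher and 299 lower, 0 pre-B, 1 pan-leukocyte and 1 of the 9 genes, with 572 genes called in both fits and 0 in only one. Without a filter 312 genes were called higher and 312 were at least 2-fold higher, so the p threshold removed none of them. Equal counts under the block thus reflect the 2-fold cut and are no check on the p-values. Deviations of same-numbered arrays correlated between -0.00385 and 0.181, so the numbers were not taken to pair the samples.

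None of the 9 co-culture differences changed sign in the settings run for it. A pseudocount of 16 lowered Spib to 4.32, Pou2af1 to 1.08 and Ptprc to 0.98 on the log2 scale, and the mean of all probe sets lowered Ptprc to 0.92, Cd53 to 0.94 and Coro1a to 1.53. Ptprc under both settings, and Cd53 under the second, thus came under 2-fold. With 2 arrays a group and 4 genes below the filter, small differences at low signal could not be resolved.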
